A study of Gallus gallus with 23 samples.

Results

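Corticosterone, the main glucocorticoid of birds, was given alone to 6 broiler cockerels (CS), and the transcripts of their livers were set against those of 6 cockerels given vehicle (VC). These 12 birds, 1 array each, are all that the labels put in the CS and VC groups, out of 23 in the series. The comparison covered every feature with enough values, 9244 in all: 4834 genes with a name and 4410 spots that carry none. The gene lists used below and the rule for naming genes were chosen with earlier results of these data known. The cockerels were Ross x Cobb crosses that carried a subcutaneous osmotic minipump from 29 days of age, delivering 1.0 microlitre per hour, and livers were taken on day 6. CS pumps released corticosterone at 600 micrograms per kg per day. VC pumps held only DMSO (50%) and propylene glycol. Another pair of groups shared the estimate of the spread and the filter on missing values with CS and VC, and its own values enter where the text says so: CS+T3 (5 birds, the same corticosterone dose with triiodothyronine, T3, the active thyroid hormone, at 192 micrograms per kg per day) and T3 (6 birds, T3 at that dose without corticosterone). All groups carried a pump, were housed 3 to a pen in 2 rooms and ate freely. The labels do not say which birds shared a pen, and plasma hormone levels and body weights were not used here.

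Glucocorticoids enter liver cells, bind the glucocorticoid receptor, and the receptor then moves to the nucleus and raises or lowers the transcription of its target genes. In the liver they are known for directing amino acids from muscle into glucose and for changing the output of plasma proteins. In broiler chickens a lasting excess of corticosterone is known to slow growth and to favour fat deposition. The series was made to compare hormonally induced lean and fat birds, and the comparison of CS with VC asks what corticosterone did to the liver by itself.

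RNA of each whole liver was labelled with 1 dye and hybridised to a spotted cDNA array (19200 spots) together with a pool of RNA from 6 control birds in another dye. The deposited log ratios were read as log2 of bird over pool, so a difference of 1 between groups is a factor of 2. Neither the base nor the numerator is stated. The direction is likely, because the labels give the bird as the first channel, but every rise and fall below would turn round if the pool were the numerator. The 12 arrays held 10919 to 13721 values each. On CS replicate 3 the values sat 13 spots early in printing order (correlation with the other arrays -0.057 in place and 0.363 at that lag), while its pattern of blank spots correlated with that of the others in place (0.821) and hardly at that lag (0.0813). On VC replicate 4 the values sat 1 spot early over spots 134 to 4912 and 4 spots early from spot 5167 on. From spot 18687 on, VC replicate 1 was also misplaced, and these values were left missing. After the shifted values were moved back, with blank spots kept blank where they were, 6348 values remained on CS replicate 3 and 8683 on VC replicate 4. The SD of the deposited values of an array was 0.32 to 0.50 in CS and 0.18 to 0.36 in VC.

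Markers of the labelled tissue were present, and all 16 hepatocyte markers named on the array gave values. Their mean over the list lay between -0.96 and -0.25 in CS birds, against -0.12 to 0.13 in VC birds, and 5 of the 16 fell (APOB, F2, FGA, FGB and TTR). In bulk liver, fewer cells of a type and less RNA per cell cannot be told apart. The mean of 8 erythrocyte and thrombocyte markers was 0.10 to 0.33 in CS birds, against -0.03 to 0.17 in VC birds, and 1 of 8 rose (SLC4A1, the red cell anion exchanger). For 16 endothelial markers it was 0.10 to 0.32 in CS birds, against 0.04 to 0.13 in VC birds, with none past the test. For 18 leukocyte markers it was -0.22 to 0.09 in CS birds, against -0.13 to 0.09 in VC birds, and 2 of 18 fell (BTK and CYBB). None of 26 markers of stellate cells and matrix and none of 16 markers of pancreas, muscle, adipose tissue and kidney passed. Past the test were 31.2% of hepatocyte, 12.5% of erythrocyte and thrombocyte and 11.1% of leukocyte markers, against 3.39% of all named genes. The part of these cell types in the results below was not tested.

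More liver transcripts fell than rose under corticosterone. Of the named genes, 123 fell (2.54%) and 41 rose (0.848%) past the test (limma, moderated test, adjusted p at or under 0.05 over all features). The falls were also the larger changes, with a median of -0.82 and a range from -0.30 to -2.19, against a median of 0.49 and a range from 0.30 to 1.48 for the rises. The median of all named genes was 0.03. Among 4327 named genes with at least 5 values in each group, every CS bird lay above every VC bird for 53 (1.22%) and below every VC bird for 115 (2.66%). Over all features 360 passed (3.89%), 87 higher (0.941%) and 273 lower (2.95%), and 1800 had an unadjusted p under 0.05. With quantile normalization 128 passed, 18 higher and 110 lower. The count was 211 without CS replicate 4, 591 without CS replicate 5, and 194 without the shifted CS replicate 3 and VC replicate 4. Without all 7 arrays of the series with a misplaced part it was 127 (10 higher, 117 lower), and with only CS and VC arrays in the fit it was 306.

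The largest falls and rises, chosen by a fixed rule of size, were spread over several functions of the liver. The 12 falls were ORM1, EPB41L5, HSD11B1B, FGB, PSPH, AMBP, AP1M1, TMX4, NME2, HPGDS, MME and TTR, from -2.19 to -1.35. The 12 rises were CBLB, COX7C, NTRK2, FSHR, TMEM185B, NUDCD3, SIRT2, RNF152, GPT2, TBC1D9B, RNF126 and GNL2, from 1.48 to 0.74. Of 87 genes past the test that are named in the text, 20 also passed without each array in turn and in the 13 other ways of processing the values, of which 12 gave a value for UGT2A1. These are A2M, ALAS1, AMBP, BTK, C3, COX7C, CUL2, EPB41L5, F2, F9, GC, ITIH3, NME2, PDIA5, PLG, PSME3, RARRES2, TMX4, UGT2A1 and VTN, and COX7C is the only one of them that rose. Of the 87, 26 passed with the values as deposited, 38 with quantile normalization, 53 with each array scaled to a common spread, and 52 of the 85 that could be tested without the 7 arrays with a misplaced part. Among those lost were ORM1, RBP4A, HSD11B1B and GPT2, which passed in none of the first 3 of these settings, and PSPH, SERPIND1, APOH, ENO1 and ELOVL2, which passed in neither of the first 2.

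**Figure D1:**
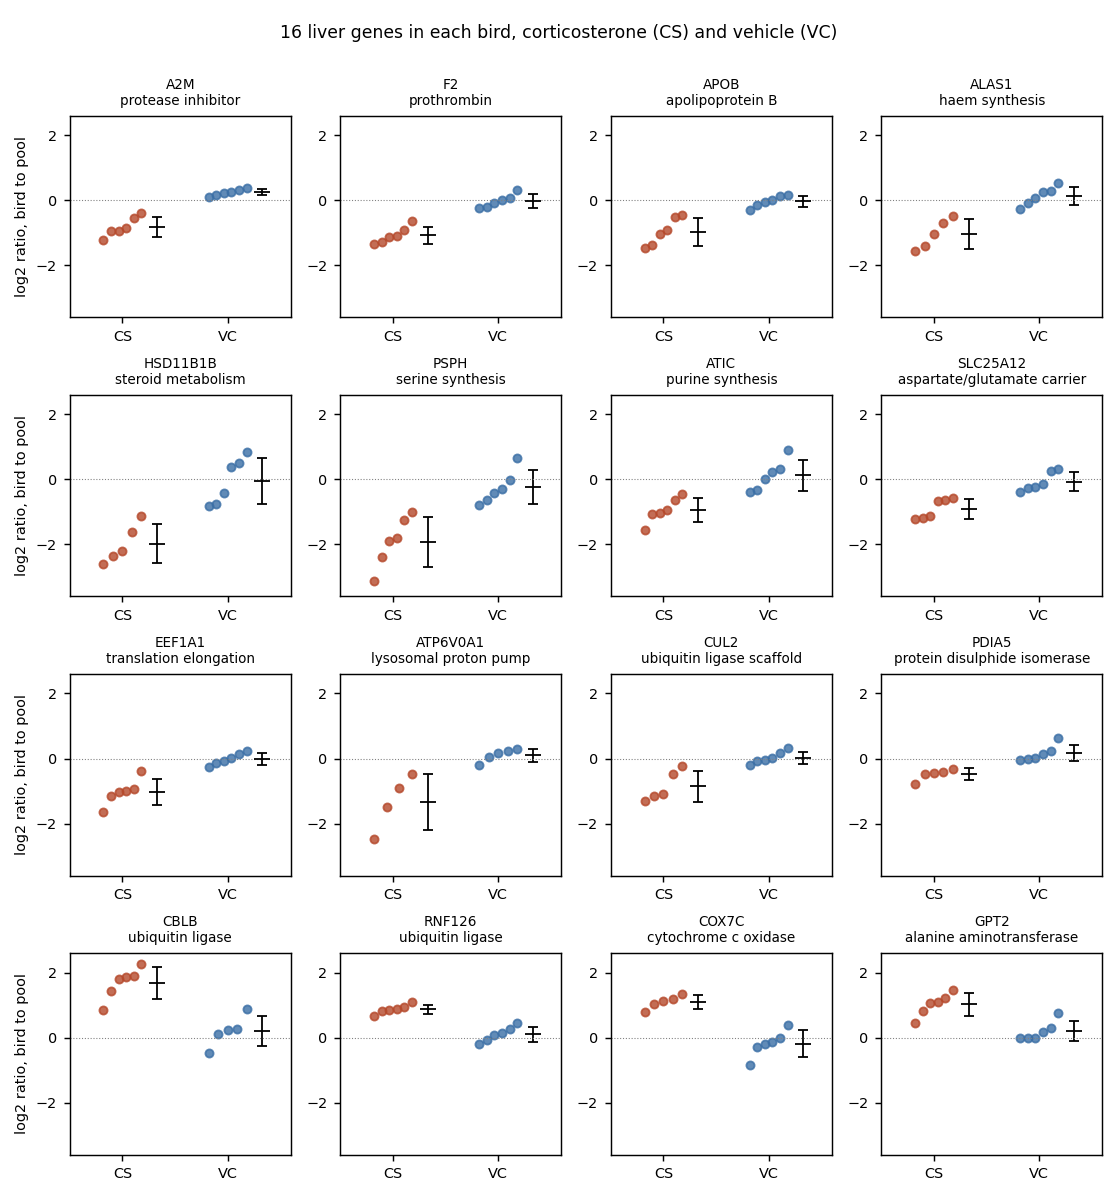
Log2 ratio of bird to pool for 16 genes in each CS bird (left, red) and each VC bird (right, blue), with the mean and SD in black beside each group. Genes of the upper 3 rows fell and those of the bottom row rose. CS and VC birds share no range in 14 of the panels and overlap for CBLB and GPT2.

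Of the 36 lists of liver functions, those of blood proteins made by the liver held the largest shares of calls. The lists were chosen with earlier results of these data known, so this order is a description and not a test. Of 19 coagulation and fibrinolysis genes, 10 fell, 1 rose and 8 did not pass (57.9% past the test, against 3.39% of all named genes), and the median was -0.46. A2M, the broad protease inhibitor alpha-2-macroglobulin, had log2 ratios of -1.23 to -0.38 (median -0.90) in CS birds, against 0.11 to 0.37 (median 0.24) in VC birds. The groups were far apart, and A2M fell by 1.06 (SE 0.13, adjusted p = 0.000157), the smallest p of any feature. F2, the gene of prothrombin, lay between -1.36 and -0.65 in CS birds, against -0.26 to 0.32 in VC birds. Of the genes of the 3 fibrinogen chains, FGA fell by 1.33 (SE 0.26) and FGB by 1.78 (SE 0.41), while FGG stood at 0.28 and did not pass (adjusted p = 0.312). SERPIND1, the gene of heparin cofactor II, an inhibitor of thrombin, fell by 1.33 (SE 0.24), and PLG, the gene of plasminogen, by 1.23 (SE 0.18). AMBP, whose product is cut into a lipocalin and a protease inhibitor, fell by 1.64 (SE 0.27). The cell-adhesion protein gene VTN fell by 1.01 (SE 0.19), the clotting factor gene F9 by 0.78 (SE 0.15) and CPB2, whose product slows clot lysis, by 0.46 (SE 0.11). KNG1, the kininogen precursor of the vasoactive kinins, went the other way, with -0.07 to 0.68 in CS birds, against -1.02 to -0.16 in VC birds, and rose by 0.68 (SE 0.17, adjusted p = 0.0285). The call of KNG1 was lost without any 1 of 5 arrays (CS 3, 4 and 6, VC 1 and 5, adjusted p 0.052 to 0.0875) and that of CPB2 without any 1 of 4 (CS 4 and 6, VC 1 and 2, adjusted p 0.0506 to 0.0615).

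Of complement genes 29.4% were past the test, against 3.39% of all named genes. In the complement system, 5 of 17 genes fell, none rose, and the median was -0.20. They belong to several steps of the cascade: MASP1, a protease that starts the lectin pathway (-0.46, SE 0.10), C4 (-0.54, SE 0.14), the central component C3 (-1.31, SE 0.24), CFI, the protease that inactivates C3b (-0.82, SE 0.21), and C8A, a part of the membrane attack complex (-1.14, SE 0.20). C3 lay between -1.68 and -0.02 in CS birds, against 0.24 to 1.31 in VC birds, with no overlap. The calls of C4 and CFI were lost without any 1 of 7 and 3 arrays (C4: CS 1, 3, 4 and 6, VC 4, 5 and 6; CFI: CS 4 and 6, VC 5), with adjusted p up to 0.0822.

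Carriers and acute-phase proteins followed, with 7 of 25 lower and none higher (median -0.37). The share past the test was 28.0%, against 3.39% of all named genes. ORM1, the acute-phase carrier orosomucoid, had the largest fall of any named gene, with -3.28 to -1.22 (median -2.57) in CS birds, against -1.26 to 1.50 (median -0.30) in VC birds. The ranges of ORM1 met at their edges, and it fell by 2.19 (SE 0.49, adjusted p = 0.0128). TTR, a carrier of thyroid hormone and of retinol-binding protein, fell by 1.35 (SE 0.26), and RBP4A, a retinol-binding protein gene named after its value was seen, fell by 0.90 (SE 0.19). GC (-1.20, SE 0.20), the carrier of vitamin D, and CP (-0.75, SE 0.17), the copper-containing ferroxidase ceruloplasmin, fell too. So did ITIH2 (-1.09, SE 0.22) and ITIH3 (-0.87, SE 0.15), heavy chains of the inter-alpha-trypsin inhibitors, and SERPINF1, the gene of pigment epithelium-derived factor (-0.44, SE 0.10). ALB, the albumin gene, stood at -0.81 (SE 0.32, adjusted p = 0.165) and AHSG, the fetuin gene, at -1.06 (SE 0.41, adjusted p = 0.159), and neither passed. RARRES2, the gene of the adipokine chemerin, was also named after its value was seen. It lay between -1.70 and -0.42 in CS birds, against 0.06 to 0.62 in VC birds, and fell by 1.17 (SE 0.21, adjusted p = 0.0022). GPR1, which encodes a chemerin receptor in mammals and was picked with its value known too, rose by 0.34 (SE 0.07, adjusted p = 0.0054), with 0.06 to 0.49 in CS birds, against -0.13 to 0.01 in VC birds. GPR1 did not pass with the values as deposited (adjusted p = 0.17) or without the 7 arrays with a misplaced part (adjusted p = 0.0972).

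In lipid metabolism 4.00% of fatty acid synthesis genes and 6.25% of cholesterol synthesis genes passed, each 1 gene, against 3.39% of all named genes. Of 25 genes of fatty acid synthesis and its regulators, 1 fell (ELOVL2) and 24 did not pass, and the median was -0.01. ELOVL2, an elongase of long polyunsaturated fatty acids, lay between -0.88 and -0.50 in CS birds, against -0.08 to 0.18 in VC birds, and fell by 0.70 (SE 0.14, adjusted p = 0.0083). None of 12 genes of triglyceride synthesis and lipid droplets, none of 34 of fatty acid oxidation and ketone bodies and none of 8 of bile acid synthesis and export passed. EHHADH, a peroxisomal oxidation enzyme, had the smallest p of the oxidation genes (-0.66, SE 0.19, adjusted p = 0.0559). Of 16 cholesterol synthesis genes, ACAT2, an acetyl-CoA acetyltransferase, rose by 0.55 (SE 0.14, adjusted p = 0.0296). Of the 16 estimates 12 were above 0, against 2733 of 4834 over all named genes. The call of ACAT2 was lost without any 1 of 6 arrays (CS 1 and 3, VC 1, 2, 4 and 5, adjusted p 0.0521 to 0.0739).

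Of 11 apolipoprotein and lipoprotein genes, 2 fell (18.2%, against 3.39% of all named genes past the test). APOB, the structural protein of very low density lipoprotein, which carries triglyceride out of the liver, lay between -1.48 and -0.44 in CS birds, against -0.30 to 0.16 in VC birds, and fell by 0.92 (SE 0.18, adjusted p = 0.004). APOH, beta-2-glycoprotein I, fell by 1.22 (SE 0.25). APOA5, a regulator of triglyceride breakdown, stood at -0.29 (SE 0.09, adjusted p = 0.0776) and did not pass. SLC51A, a subunit of the organic solute transporter that returns bile acids to blood and picked with its value known, fell by 0.87 (SE 0.18), with -0.73 to -0.01 in CS birds, against 0.07 to 0.86 in VC birds.

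In carbohydrate metabolism 8.70% of glycolysis genes and 5.56% of gluconeogenesis and glycogen genes passed, against 3.39% of all named genes. These shares rest on 2 genes and 1 gene. In glycolysis 2 of 23 genes fell: ENO1, enolase 1 (-1.24, SE 0.27), and AKR1B1, aldose reductase (-0.47, SE 0.13). ENO1 lay between -1.79 and -0.46 in CS birds, against -0.46 to 0.88 in VC birds, so the ranges met at their edges. The 2 spots of AKR1B1 stood at -0.98 and 0.04. GAPDH, glyceraldehyde-3-phosphate dehydrogenase, stood at -0.67 (SE 0.22, adjusted p = 0.0933) and did not pass, and its 11 spots with values lay between -1.34 and -0.18. Of 18 genes of gluconeogenesis and glycogen, PCK2, the mitochondrial phosphoenolpyruvate carboxykinase, fell by 0.52 (SE 0.13, adjusted p = 0.0269). PCK1, the cytosolic form and a classical glucocorticoid target in mammals, stood at 0.16 (SE 0.18, adjusted p = 0.678), and FBP1, fructose-1,6-bisphosphatase 1, at -0.56 (SE 0.17, adjusted p = 0.072). PCK1 ranged from -0.26 to 0.58 in CS birds, against -0.36 to 0.06 in VC birds, and the ranges overlapped. The calls of AKR1B1 and PCK2 were lost without any 1 of 9 and 4 arrays (AKR1B1: CS 1, 2, 3, 4 and 6, VC 1, 2, 4 and 5; PCK2: CS 3 and 4, VC 4 and 5), with adjusted p up to 0.101 and 0.0815.

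Among 15 tricarboxylic acid cycle genes 2 fell (13.3%, against 3.39% of all named genes past the test), and both are also at work outside the cycle. SLC25A12, the mitochondrial aspartate and glutamate carrier, lay between -1.23 and -0.58 in CS birds, against -0.38 to 0.31 in VC birds, and fell by 0.83 (SE 0.19, adjusted p = 0.0122). ACO1, the cytosolic aconitase and iron-responsive RNA-binding protein, fell by 0.91 (SE 0.20). Of 35 oxidative phosphorylation genes 1 rose and 1 fell (5.71% past the test). COX7C, a small subunit of cytochrome c oxidase, lay between 0.79 and 1.35 in CS birds, against -0.84 to 0.39 in VC birds. It rose by 1.28 (SE 0.20, adjusted p = 0.0015), with a gap between the groups, and rests on 1 spot. ATP5H, a subunit of ATP synthase, fell by 0.60 (SE 0.15), a call lost without any 1 of 5 arrays (CS 1, 4 and 6, VC 2 and 4, adjusted p 0.0514 to 0.0787).

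Of 35 genes of amino acid breakdown and aminotransferases, 1 passed (2.86%, against 3.39% of all named genes). This was GPT2, an aminotransferase for which alanine is the amino donor. GPT2 lay between 0.46 and 1.48 in CS birds, against -0.02 to 0.76 in VC birds, and rose by 0.82 (SE 0.16, adjusted p = 0.0051). FAH, the last enzyme of tyrosine breakdown, stood at -0.61 (SE 0.19, adjusted p = 0.0679) and TAT, its first enzyme and a textbook glucocorticoid target in rodent liver, at -0.37 (SE 0.14, adjusted p = 0.157). TAT ranged from -0.75 to 0.11 in CS birds, against -0.10 to 0.34 in VC birds.

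Of 25 genes of serine, methionine, cysteine and one-carbon metabolism, 3 fell and 22 did not pass (median -0.13). The share past the test was 12%, against 3.39% of all named genes, and rests on these 3 genes. PSPH, which makes serine in the last step of the phosphorylated pathway, lay between -3.13 and -0.995 (median -1.86) in CS birds, against -0.79 to 0.67 (median -0.36) in VC birds. PSPH fell by 1.67 (SE 0.29, adjusted p = 0.0024) with no overlap. PHGDH, the first enzyme of the same pathway, stood at -0.68 (SE 0.21, adjusted p = 0.0683). ASNS, asparagine synthetase, fell by 0.44 (SE 0.11) and MTHFD2, a mitochondrial folate enzyme, by 0.50 (SE 0.13). ALDH18A1, which starts proline synthesis from glutamate and was picked with its value known, fell by 0.57 (SE 0.13). ATIC, which completes the purine ring in the pathway that birds also use to make uric acid, lay between -1.54 and -0.46 in CS birds, against -0.40 to 0.91 in VC birds. ATIC fell by 1.07 (SE 0.22, adjusted p = 0.006). It was the 1 of 13 purine and uric acid genes past the test (7.69%, against 3.39% of all named genes). ASNS was not past the test without VC replicate 2 (adjusted p = 0.0532), and MTHFD2 was not without any 1 of 5 arrays (CS 4 and 6, VC 1, 2 and 5, adjusted p 0.0672 to 0.106).

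Iron, haem and copper handling had 4 of 21 genes lower and none higher (19.0% past the test, against 3.39% of all named genes). ALAS1, which sets the pace of haem synthesis in the liver, lay between -1.55 and -0.48 (median -1.03) in CS birds, against -0.27 to 0.52 (median 0.15) in VC birds. The groups did not overlap, and ALAS1 fell by 1.16 (SE 0.18, n = 5 and 6, adjusted p = 0.0015). The others were ACO1 and CP, given above, and STEAP3, a reductase that prepares endosomal iron for export (-0.97, SE 0.25). STEAP3 was not past the test without any 1 of 5 arrays (CS 3, 4 and 6, VC 5 and 6, adjusted p 0.0546 to 0.0994).

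Steroid and xenobiotic metabolism had 3 of 55 genes lower and none higher (5.45% past the test, against 3.39% of all named genes). Of its estimates 39 of 55 were below 0 (median -0.10), against 2101 of 4834 over all named genes. HSD11B1B, a gene of the 11-beta-hydroxysteroid dehydrogenase type 1 family, whose mammalian member regenerates active glucocorticoid inside cells, lay between -2.62 and -1.13 (median -2.21) in CS birds, against -0.83 to 0.84 (median -0.01) in VC birds. It fell by 1.94 (SE 0.42, n = 5 and 6, adjusted p = 0.0098), and the CS and VC birds did not overlap. UGT2A1, a glucuronosyltransferase, fell (-0.66, SE 0.12), as did CYP39A1, an oxysterol hydroxylase (-1.01, SE 0.26). The esterase gene CES1L1 (-0.92, SE 0.23) and the epoxide hydrolase gene EPHX1L (-1.04, SE 0.22), outside the list and named after their values were seen, fell as well. The calls of CYP39A1 and CES1L1 were lost without any 1 of 5 and 3 arrays (CYP39A1: CS 4 and 6, VC 1, 2 and 6; CES1L1: CS 4 and 6, VC 5), with adjusted p up to 0.101 and 0.0651. HSD11B1B rests on 1 spot and did not pass with quantile normalization (adjusted p = 0.312).

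**Figure D2:**
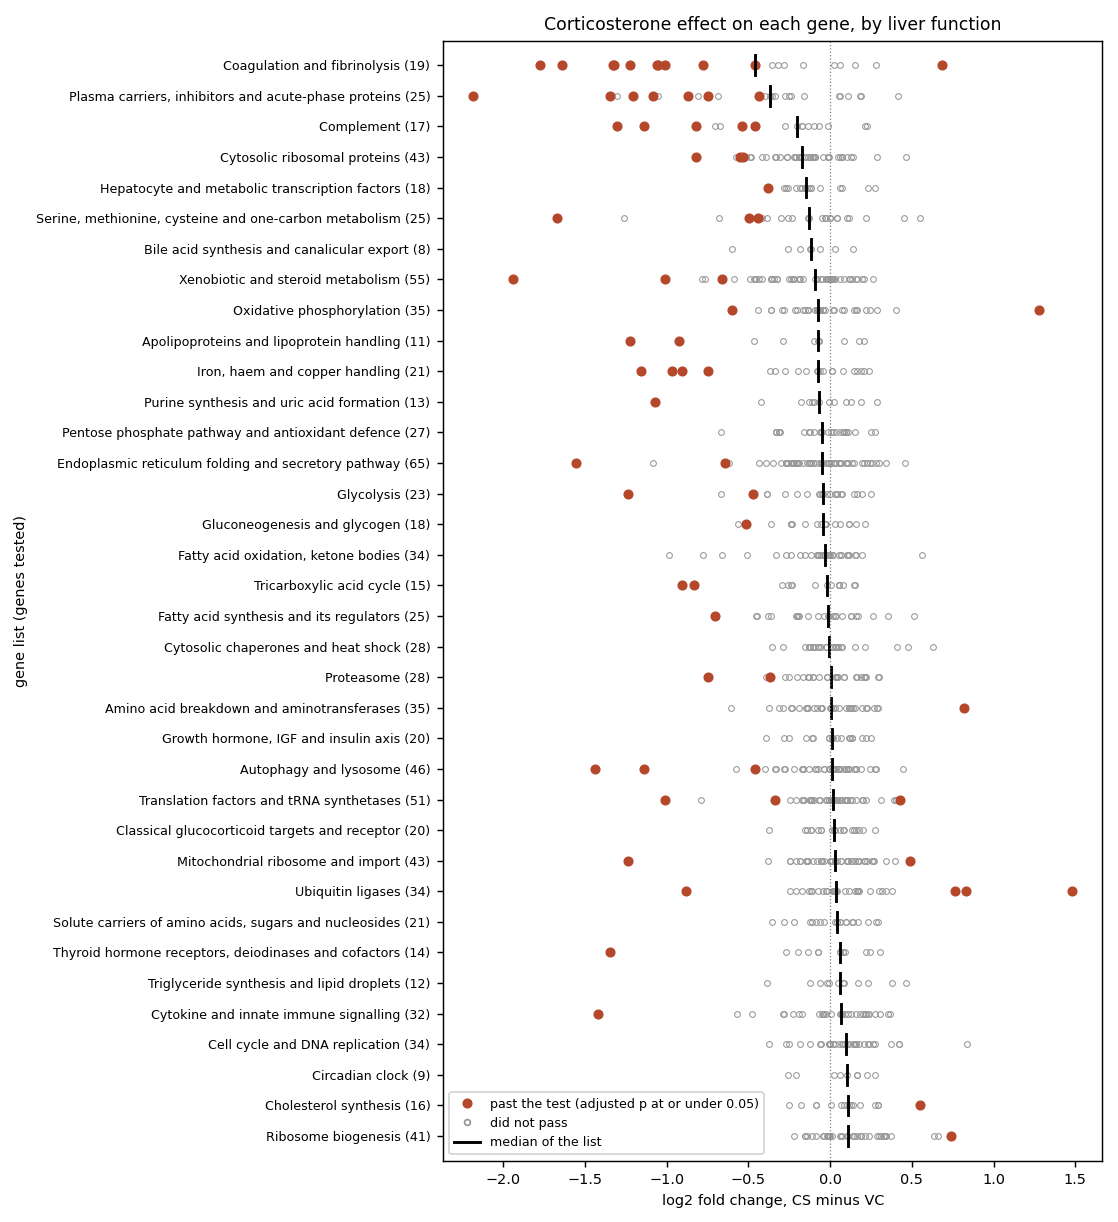
Log2 fold change of CS minus VC for every tested member of 36 gene lists of liver functions, 1 row a list, with the number of genes tested in brackets. Filled red points passed the test, open grey points did not, and the black bar is the median of the list, from -0.46 for coagulation to 0.11 for ribosome biogenesis.

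Genes that carry out protein synthesis changed in small numbers and in both directions. Past the test were 6.98% of cytosolic ribosomal protein genes and 5.88% of translation factors and tRNA synthetases, against 3.39% of all named genes. For ribosome biogenesis the share was 2.44%, and for the mitochondrial ribosome and import it was 4.65%. Each share rests on few genes. Of 43 cytosolic ribosomal protein genes 3 fell (RPL11, RPS12 and RPS24, from -0.82 to -0.54) and none rose. Of the 43 estimates 34 were below 0 (median -0.17), against 2101 of 4834 over all named genes. EEF1A1, the factor that brings aminoacyl-tRNA to the ribosome, lay between -1.63 and -0.39 (median -1.02) in CS birds, against -0.25 to 0.23 (median -0.03) in VC birds. It fell by 1.01 (SE 0.15, adjusted p = 0.000817), and EEF2, the translocation factor, stood at -0.79 (SE 0.24, adjusted p = 0.0602). Among 51 translation factors and tRNA synthetases PABPC1, the poly(A)-binding protein, also fell (-0.34, SE 0.09), and FARSB, a phenylalanyl-tRNA synthetase subunit, rose (0.43, SE 0.12). In ribosome biogenesis 26 of 41 estimates were above 0 (median 0.11), against 2733 of 4834 over all named genes, and 1 gene rose: GNL2, a nucleolar GTPase of large-subunit assembly (0.74, SE 0.19). In the mitochondrial ribosome MRPS15 fell by 1.24 (SE 0.24) and MRPL22 rose by 0.49 (SE 0.10), with no overlap of the groups for either.

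Several of these calls depended on single arrays. RPL11, RPS12, RPS24, PABPC1, FARSB and GNL2 were not past the test without any 1 of 7, 9, 3, 9, 9 and 6 arrays, and the highest adjusted p was then 0.134. For RPS24 these were CS 4, VC 2 and VC 5, and for GNL2 they were CS 3, 4 and 6 and VC 3, 4 and 6. RPL11 lost its call without CS 1, 2, 3 or 4 or VC 2, 4 or 5, and RPS12 without CS 1, 3, 4 or 6 or any VC array but VC 1. PABPC1 lost it without CS 2, 4 or 6 or any VC array, and FARSB without any CS array but CS 5 or without VC 1, 2, 4 or 6.

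The secretory pathway as a list stayed close to all genes, with 2 of 65 lower and a median of -0.05. The share past the test was 3.08%, against 3.39% of all named genes. PDIA5, a protein disulphide isomerase of the endoplasmic reticulum, lay between -0.79 and -0.31 in CS birds, against -0.04 to 0.62 in VC birds, and fell by 0.64 (SE 0.13, adjusted p = 0.0054). AP1M1, an adaptor for transport between the Golgi and endosomes, lay between -2.25 and -0.19 in CS birds, against 0.13 to 0.87 in VC birds, and fell by 1.56 (SE 0.35). TMX4, a thioredoxin-related membrane protein that is not on the list, fell by 1.52 (SE 0.26). None of 28 cytosolic chaperones and heat shock proteins passed. CREB3L2, a membrane-bound transcription factor of the secretory pathway, fell by 0.38 (SE 0.09) and was the 1 of 18 hepatocyte and metabolic transcription factors past the test; its call was lost without CS 6 or VC 5 (adjusted p 0.052 to 0.053).

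The 3 lists of protein breakdown held 3 rises and 6 falls. Past the test were 11.8% of ubiquitin ligase, 7.14% of proteasome and 6.52% of autophagy and lysosome genes, against 3.39% of all named genes. Each share rests on few genes. Of 34 ubiquitin ligase genes 3 rose and 1 fell. CBLB, a ligase that marks activated tyrosine kinase receptors and their partners, lay between 0.85 and 2.25 (median 1.84) in CS birds, against -0.46 to 0.87 (median 0.22) in VC birds. The groups met only at CS replicate 3 and VC replicate 3, and CBLB rose by 1.48 (SE 0.27, adjusted p = 0.0034), the largest rise of any named gene. RNF126, a ligase of cytosolic quality control, lay between 0.68 and 1.09 in CS birds, against -0.21 to 0.45 in VC birds, and rose by 0.76 (SE 0.15). RNF152, a lysosomal ligase, rose by 0.83 (SE 0.21), and CUL2, the scaffold of the ligase that holds the von Hippel-Lindau protein, fell by 0.88 (SE 0.17), with no overlap of the groups for CUL2. RNF152 was not past the test without any 1 of 5 arrays (CS 4 and 6, VC 1, 4 and 5, adjusted p 0.0575 to 0.0728).

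Of 28 proteasome genes 2 fell: PSME3, the nuclear proteasome activator (-0.75, SE 0.13), and PSMA3, a core subunit (-0.37, SE 0.10, n = 4 and 4). PSMA3 was not past the test without any 1 of 10 arrays (all but CS 2 and CS 5, adjusted p 0.053 to 0.141). Of 46 autophagy and lysosome genes 3 fell, and 2 of them encode subunits of the proton pump that acidifies lysosomes. ATP6V0A1, its membrane subunit, lay between -2.47 and -0.49 in 4 CS birds, against -0.21 to 0.29 in 5 VC birds, and fell by 1.44 (SE 0.28, adjusted p = 0.0061). ATP6V1A, its catalytic subunit, fell by 1.14 (SE 0.29), with 1 CS bird, replicate 3, at -2.97 and the other five between -1.08 and -0.66. ATG2A, a lipid transfer protein of autophagosome growth, fell by 0.46 (SE 0.11). ATP6V1A and ATG2A each have 2 spots with values, which differ in sign (-1.86 and 0.10 for ATP6V1A, -0.84 and 0.12 for ATG2A). The call of ATP6V1A was lost without VC 2, VC 3 or VC 5 (adjusted p 0.0558 to 0.0717) and that of ATG2A without CS 3 or VC 4 (adjusted p 0.0547 to 0.0644).

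Among genes outside these functions, EPB41L5, a membrane-cytoskeleton adaptor, showed the second largest fall, with -2.05 to -1.05 (median -1.50) in CS birds, against -0.43 to 2.37 (median 0.16) in VC birds. It fell by 2.05 (SE 0.38, adjusted p = 0.0035), and the VC birds spread widely (SD 1.06). NME2, a nucleoside diphosphate kinase, fell by 1.51 (SE 0.21), HPGDS, which makes prostaglandin D, by 1.42 (SE 0.28) and MME, the peptidase neprilysin, by 1.42 (SE 0.25). TM4SF4, a tetraspanin-like protein on the bile duct list, fell by 1.30 (SE 0.28), while the other 7 bile duct markers did not pass. The share past the test was 12.5% of that list, against 3.39% of all named genes. NTRK2, a neurotrophin receptor, lay between 0.35 and 1.78 in CS birds, against -0.86 to 0.78 in VC birds, and rose by 1.13 (SE 0.25). The NAD-dependent deacetylase gene SIRT2 rose by 0.85 (SE 0.20) and TBC1D9B, of a family that controls Rab proteins, by 0.77 (SE 0.16). FSHR, the receptor of follicle-stimulating hormone, rose by 1.09 (SE 0.27), TMEM185B by 0.96 (SE 0.22) and NUDCD3 by 0.86 (SE 0.23). NTRK2, SIRT2 and TMEM185B were not past the test without CS replicate 3 and VC replicate 4 or with the values as deposited. NTRK2 and SIRT2 also did not pass with quantile normalization or with each array scaled to a common spread. FSHR was not past the test without CS 6 or VC 5 (adjusted p 0.0531 to 0.0695), nor was NUDCD3 without any 1 of 9 arrays (all but CS 3, CS 6 and VC 3, adjusted p up to 0.104).

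Of leukocyte markers 11.1% passed, of erythrocyte and thrombocyte markers 12.5% and of cytokine and innate immune genes 3.12%, against 3.39% of all named genes. These shares rest on 2, 1 and 1 genes. BTK, a kinase of B cells and myeloid cells, lay between -0.77 and -0.31 in CS birds, against -0.14 to 0.58 in VC birds, and fell by 0.71 (SE 0.13, adjusted p = 0.0035). CYBB, the phagocyte oxidase subunit, fell by 0.45 (SE 0.12), and CD74, the invariant chain of antigen presentation, stood at -0.57 (SE 0.18, adjusted p = 0.0679). HPGDS was the 1 of 32 cytokine and innate immune genes past the test. SLC4A1 rose by 0.36 (SE 0.09), with 0.03 to 0.53 in CS birds, against -0.20 to -0.01 in VC birds. All 8 erythrocyte and thrombocyte estimates were above 0 (median 0.08), against 2733 of 4834 over all named genes. CYBB and SLC4A1 were not past the test without any 1 of 7 and 8 arrays (CYBB: CS 1 and 4, VC 1 to 5; SLC4A1: CS 2, 4 and 6, VC 1, 3, 4, 5 and 6), with adjusted p up to 0.123 and 0.115.

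The lists of genes known to follow glucocorticoids, thyroid hormone and growth signals are short, and 3.39% of all named genes passed. Counts of 0 or 1 in such lists can arise at that share. None of 20 classical glucocorticoid genes passed, and their estimates lay between -0.37 and 0.27 (median 0.02). FKBP5, a co-chaperone of the glucocorticoid receptor and one of its most direct targets in mammals, lay between -0.04 and 0.20 in CS birds, against -0.42 to -0.04 in VC birds. Its difference was 0.27 (SE 0.12, adjusted p = 0.221). SGK1 stood at -0.06 (SE 0.09), DUSP1 at -0.05 (SE 0.12), PDK4 at 0.15 (SE 0.13) and NFKBIA at 0.20 (SE 0.14). The carrier TTR was the 1 of 14 thyroid hormone genes past the test, and DIO1, the type 1 deiodinase, stood at 0.25 (SE 0.07, adjusted p = 0.0503). DIO1 is the mean of 30 spots, and the 23 of them with enough values lay between -0.20 and 0.73. None of 20 growth hormone, IGF and insulin genes, 9 clock genes and 21 solute carriers passed. Nor did any of 34 cell cycle genes and 27 genes of the pentose phosphate pathway and antioxidant defence, against 3.39% of all named genes. When known differences were simulated for CS against VC, the fit found 91% of those of size 1 and 49% of those of size 0.5. Smaller changes were thus often not detectable. The simulation drew independent values with 1 spread per gene for all groups, which the arrays need not follow.

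The 6 CS birds differed in the size of their change from the VC mean. Over the 123 genes that fell, the median difference from the VC mean was -0.64, -0.85, -0.75, -1.01, -0.41 and -0.86 in CS replicates 1 to 6, while the VC birds lay between -0.09 and 0.12. CS replicate 5 was the weakest for the falls, and also for the 41 rises (0.29, against 0.44 to 0.57 in the other CS birds). Since these genes were chosen on the same arrays, the values describe the birds and test nothing. The SD of the deposited values was 0.34, 0.50, 0.33, 0.47, 0.32 and 0.49 on the arrays of CS replicates 1 to 6. Whether the order of the birds follows the spread of their arrays was not tested. Among 43 named falls with a value in all 6 CS birds, CS replicate 5 was the highest in 24 and CS replicate 3, the shifted array, in 13. CS replicate 5 was not weak for every gene: it had the highest GPT2 of all CS birds (1.48).

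**Figure D3:**
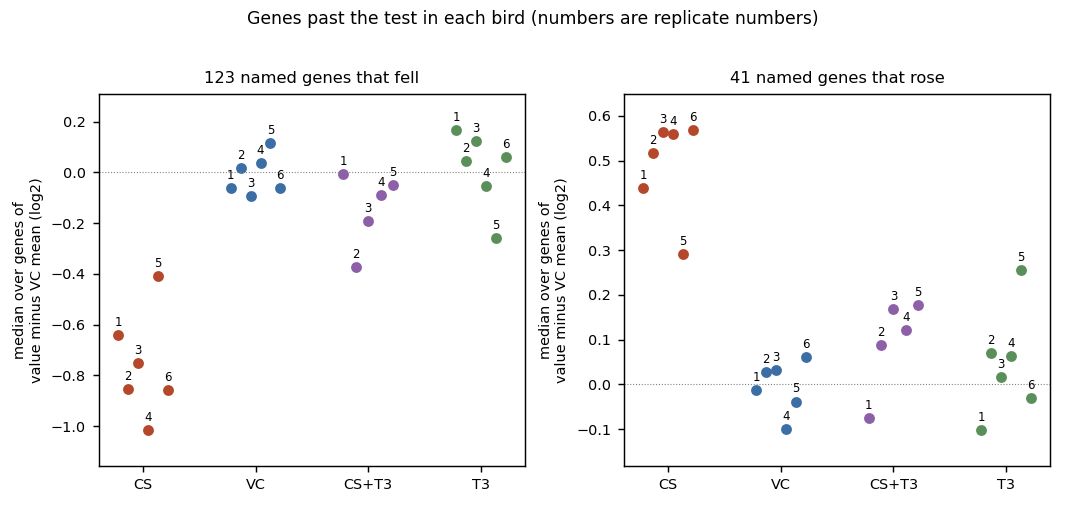
Median over the genes that fell (left) and rose (right) in CS against VC of each bird's value minus the VC mean, in log2 units, for CS, VC, CS+T3 and T3 birds, with replicate numbers. For the falls, CS birds stand at -1.01 to -0.41, and the birds of the other groups all stand above them.

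The corticosterone effect was also measured by setting CS+T3 against T3, which enter no CS or VC mean but share the fit's estimate of the spread. CS+T3 replicates 1 and 2 and T3 replicates 1 and 3 were among the 6 arrays moved back. T3 replicate 1 kept 6436 values and then correlated with the other arrays at 0.196, the lowest of all arrays. In CS+T3 against T3, 4 features passed (0.0433%), and 2 of them are named genes (0.0414%), both higher in CS+T3. GPT2 lay between 0.97 and 1.71 in 4 CS+T3 birds, against -0.68 to -0.09 in 6 T3 birds, and rose by 1.66 (SE 0.18, adjusted p = 4.92e-05). With the values as deposited GPT2 passed neither without T3 (0.45, adjusted p = 0.488) nor with it (1.03, adjusted p = 0.999). The difference between its 2 effects (0.84, SE 0.24) did not pass (adjusted p = 0.262). TM2D3 rose by 1.15 (SE 0.19, adjusted p = 0.0069) with T3 and stood at 0.35 (SE 0.18, adjusted p = 0.282) without it. Without the 7 arrays with a misplaced part no feature passed (limma, 216 with an unadjusted p under 0.05), TM2D3 had an adjusted p of 0.412, and GPT2 had too few values to be tested.

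The 123 genes that fell under corticosterone alone had a median of -0.14 in CS+T3 against T3, and 91 of them (74.0%) were below 0, against 50.6% of all named genes tested. For 120 of the 123 the change was smaller in size with T3, against 3024 of all 4834 named genes tested. The 41 genes that rose had a median of 0.01 with T3, and 22 (53.7%) were above 0, against 49.4% of all named genes. Since the genes were chosen on CS against VC, their smaller size on other arrays is given as a description. ALDH18A1 (-0.58 with T3, -0.57 without) and ASNS (-0.45 and -0.44) were as large with T3. TTR (-1.05 and -1.35) and the riser ACAT2 (0.45 and 0.55) kept most of their size. EPB41L5 (-0.12 and -2.05), ALAS1 (-0.01 and -1.16), COX7C (0.00 and 1.28) and CBLB (0.08 and 1.48) had estimates near 0 with T3.

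A direct test of the difference passed for 8 features (0.0865%), 2 of them named genes (0.0414%), and all 8 were positive. For A2M the corticosterone effect was -0.10 (SE 0.13) with T3 and -1.06 (SE 0.13) without, a difference of 0.96. For F2 it was -0.03 (SE 0.15) with T3 and -1.05 (SE 0.13) without, a difference of 1.02. Both stood just inside the threshold (adjusted p = 0.0491), and neither passed without the 7 arrays with a misplaced part (adjusted p = 0.33 for both). Under the other settings tried F2 did not pass, and A2M passed only with each array scaled to a common spread. For TAT the estimates had opposite signs, 0.62 (SE 0.15) with T3 and -0.37 (SE 0.14) without, and their difference did not pass (adjusted p = 0.0664).

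**Figure D4:**
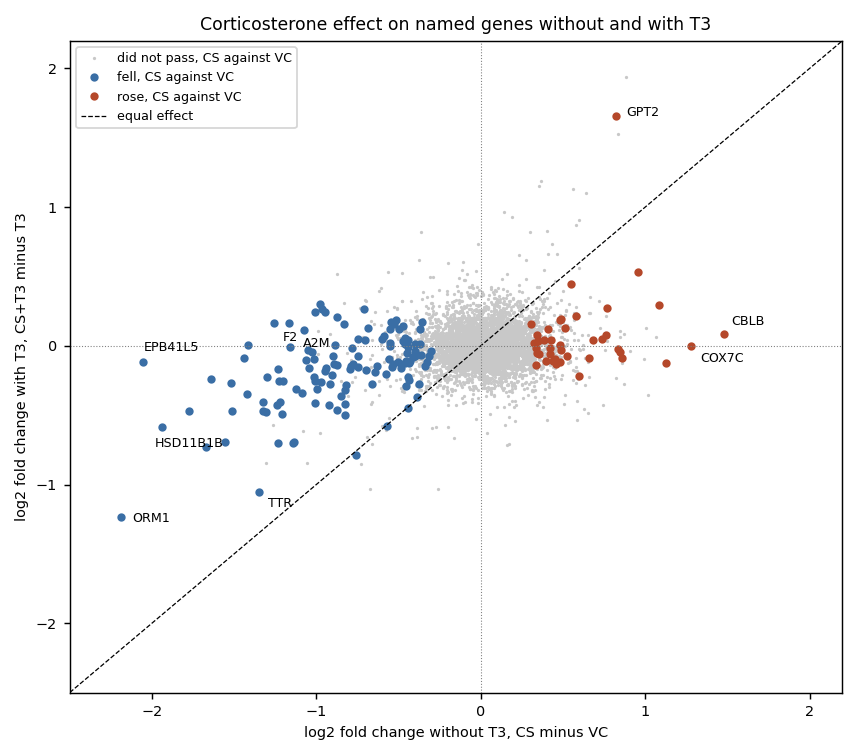
Log2 fold change of each named gene under corticosterone without T3 (CS minus VC, horizontal) and with T3 (CS+T3 minus T3, vertical). Blue points fell and red points rose in CS against VC, grey points did not pass, and the dashed line marks equal effects. Of the 123 blue points 91 lie below 0 on the vertical axis, of the 41 red points 22 lie above 0, and GPT2 lies above the dashed line.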

How the data were processed

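Liver RNA of 23 cockerels was measured on 2-colour spotted cDNA arrays (20 micrograms of RNA a bird, against a common pool). The authors deposited 1 log ratio per spot, taken here as log2 values; background correction, normalization, spot filter, log base and numerator are not given in the sources used here, and the depth of an array cannot be stated. Spots were named from the platform annotation (10601 of 19200 had 1 symbol, 0 several, 8599 none; 10455 matched by Entrez ID).

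Each array was compared with the mean of the others at lags of up to 40 spots by dynamic programming. An array was moved back where 1000 or more of its spots in a row shared a lag with r at or above 0.25 (6 arrays). Parts of fewer than 1000 spots, whatever their r, and parts with r under 0.1 were left missing. On the arrays moved back, blocks in which the lag changed were left missing too. In simulated shifts at least 97.0% of spots got the right lag. These shifts were made on arrays that had not been moved and carried the blank spots along with the values. On shifted arrays such as CS replicate 3 the blanks stayed in place, so the share need not hold for them. Spots of a gene were averaged. Features with at least 3 values in each of 4 groups were fitted with limma 3.58.1 (R 4.3.3): group means over 23 arrays, empirical Bayes, Benjamini-Hochberg over all 9244 features. In simulated data 5.41% of calls were false. The fit was repeated in 13 other ways, with each spot on its own, and without each CS and VC array.

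Samples were grouped by their titles. The members, the 36 gene lists, the 7 marker lists and the naming rule were chosen with earlier results of these data known. Of each list the members past the test were named, with up to 4 others of smallest p; of all genes, the 12 largest rises and falls with at least 5 values in each group and every CS array on the same side of the VC mean; and every classical glucocorticoid gene could be. Of genes past the test, 80 were named by this rule and 7 after their values were seen. Same-numbered CS and VC birds did not deviate together (0 of 6 CS birds correlated best with their own number). Promoter motifs were not analysed here. The birds are separate animals; pens, slides and scan dates are not given.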

Additional observations from a re-analysis of the deposited data

Results flagged for a closer look

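Single birds stood apart from the rest of their group for 14 of 107 genes named in the text, among 214 groups of birds examined with Dixon's test, which flags about 1 in 20 groups by chance. In CS replicate 3, one of the shifted arrays, ATP6V1A was at -2.97 (next bird -1.08), ATG2A at -0.86 (next -0.50) and SGK1 at -0.52 (next -0.0063). In CS replicate 4 the lowest values were those of CYP39A1 (-1.42, next -0.62), ITIH2 (-1.50, next -0.65), MASP1 (-0.89, next -0.47) and RPS24 (-0.89, next -0.54). In VC replicate 5, the least correlated of the arrays that were not moved, FSHR was at -0.81 (next -0.04), RPS12 at 0.31 (next -0.24) and TMX4 at 0.98 (next 0.37). VC replicate 1 stood apart for ALDH18A1 (-0.25, next 0.12) and PSMA3 (0.16, next 0.03), VC replicate 6 for EPHX1L (-0.68, next 0.25) and VC replicate 2 for RARRES2 (0.62, next 0.20).

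In the main fit A2M (0.96 higher with T3) and F2 (1.02 higher with T3) passed the limma test of the difference itself (adjusted p = 0.0491 for both). F2 passed under none of the other settings tried for this test (adjusted p 0.185 to 0.593). A2M passed only with each array scaled to a common spread (adjusted p = 0.0144), a setting chosen after seeing the data. Under the rest its adjusted p was 0.0525 to 0.33.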

How the results depend on the processing

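No gene past the test in CS against VC that is named here changed direction under any setting that combined the spots of a gene. Direction was not compared in the fit of each spot on its own, and some genes, such as ATP6V1A, ATG2A and AKR1B1, have spots of opposite sign. Of the 87 genes, 59 kept their call without each CS and VC array in turn. Fewer kept it with the values as deposited (26 of 87), quantile normalization (38), a common spread (53), without CS replicate 3 and VC replicate 4 (61) and without the 7 arrays that hold misplaced values (52 of 85). Of genes that did not pass, SGK1 turned to 0.0055 as deposited, 0.0257 without CS replicate 3 and VC replicate 4 and without the 6 arrays moved back, and 0.0477 without the 7. With 1 array left out SGK1 lay between -0.1033 and 0.0382 (without CS replicate 3), and DUSP1 turned to 0.0465 without the 7. In CS against VC 360 features passed; 72 passed with the values as deposited (2 higher, 70 lower), 194 without CS replicate 3 and VC replicate 4 (192 of them among the 360), 127 without those 7 arrays (125 shared), 231 without the 6 of them that were moved back (214 shared), 128 with quantile normalization (119 shared; 14.1% of calls higher, against 24.2% before), 772 with array weights (311 higher, 461 lower; 342 shared), and 223 with each array scaled to a common spread. The last, and leaving out only the 6, were chosen after seeing the data. Leaving out 1 array gave 211 (without CS replicate 4) to 591 (without CS replicate 5). Other filters, centring and spot rules kept the count within 1.5 times. With the replicate number as a block, which does not pair the birds, 271 passed. In CS+T3 against T3, 4 features passed; 1 passed as deposited, 0 without the 7 or the 6 arrays, 5 with quantile normalization, 3 with the replicate block and 4 to 8 with 1 array left out. Of the 8 features whose corticosterone effect differed with T3, 0 passed by limma as deposited (628 with an unadjusted p under 0.05), without the 7 arrays (562), without the 6 (653) or with the replicate block (731), and 2 with quantile normalization. The cause of these moves was not tested. The spread between 6 birds a group, and blank spots, limit the precision.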

Other observations

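G0S2, whose product inhibits triglyceride breakdown in lipid droplets, was mostly blank and was not tested. Its spot held a value on 6 of 6 CS arrays, 1 of 6 VC arrays, 3 of 5 CS+T3 arrays and 1 of 6 T3 arrays. The gene was picked after these counts were seen, and what a blank spot means is not stated.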
